A study of Mus musculus with 40 samples.

Results

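The metallothioneins Mt1, Mt2 and Mt3 and 7 genes of the Nrf2 antioxidant response (Hmox1, Nqo1, Gclm, Srxn1, Txnrd1, Slc7a11 and Osgin1) were followed in mouse cortex after single and repeated mild head injury. These 10 genes were chosen by name from 55539 measured features, and 9 of them were abundant enough to enter the tests across 15224 genes, Osgin1 being the exception. Bulk RNA came from left somatomotor cortex. The animals were female 3xTg-AD mice, which carry transgenes that model Alzheimer's disease on a C57BL/6J background, at 2 to 4 months of age. Closed head injuries (CHI) were given with a dropped weight on the intact skull under isoflurane, once a day for 1 to 5 days. Sham animals were matched for anesthesia and pooled over exposures. Every animal in every group therefore carried the transgenes and was exposed to isoflurane, and no group without transgenes was analysed here.

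The 39 samples fell into 12 groups: 4 Sham, 10 after 1xCHI (30 min, n = 3; 4 h, n = 3; 24 h, n = 4), 3 at 24 h after 2xCHI, 9 after 3xCHI (3 at 30 min, 2 at 4 h and 4 at 24 h), 3 at 24 h after 4xCHI, and 10 after 5xCHI (3 at 30 min, 3 at 4 h and 4 at 24 h). Times are counted from the last injury, and the pre-injury state was Sham for 1xCHI, 2xCHI at 24 h for 3xCHI and 4xCHI at 24 h for 5xCHI. A further sample of 3xCHI at 4 h, sample 30, was not used: an animal was dropped in the study as an outlier in its protein data, and the labels do not say which. Total counts ran from 15926014 to 27859547 a sample (median 19028778). Each sample is one animal's tissue, and its level is given below in CPM (counts per 1000000 reads, with TMM-normalised library sizes).

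Metallothioneins are small cysteine-rich proteins that bind zinc and copper. Mt1 and Mt2 are made by many cell types, in brain mainly by astrocytes, and are transcribed in response to zinc through the factor MTF1 and in response to glucocorticoids, whereas Mt3 is the brain form and responds little to metals. Nrf2, encoded by Nfe2l2, is held by Keap1 for degradation in resting cells and, once released, binds antioxidant response elements together with a small Maf protein. Its targets make and use glutathione and thioredoxin, and degrade heme.

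The 3 metallothionein genes lie on one strand of chromosome 8 in the order Mt3 (chr8:94152607-94154146), Mt2 (chr8:94172664-94173568) and Mt1 (chr8:94179082-94180327) of GRCm38, with 18518 bases between Mt3 and Mt2 and 5514 bases between Mt2 and Mt1. The 250 bases upstream of the RefSeq start of Mt2 (chr8:94172368-94172617, GRCm38.p6, plus strand) and of Mt1 (chr8:94178839-94179088, plus strand) are shown because these adjacent genes differed in the size of their 4 h values relative to 24 h. Capitals mark the core of the metal response element that MTF1 binds, searched as TGCACNC or TGCGCNC on both strands.
Mt2: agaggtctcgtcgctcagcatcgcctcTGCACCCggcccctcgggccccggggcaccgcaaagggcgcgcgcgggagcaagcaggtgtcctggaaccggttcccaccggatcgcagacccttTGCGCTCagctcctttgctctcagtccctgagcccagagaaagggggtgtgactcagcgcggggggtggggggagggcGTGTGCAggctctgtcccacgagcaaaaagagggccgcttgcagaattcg
Mt1: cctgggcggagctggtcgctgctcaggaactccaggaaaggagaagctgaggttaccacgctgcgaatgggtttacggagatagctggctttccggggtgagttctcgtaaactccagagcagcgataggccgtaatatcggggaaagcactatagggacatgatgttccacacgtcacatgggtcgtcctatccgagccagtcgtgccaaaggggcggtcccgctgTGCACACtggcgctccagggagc
The Mt2 window held 3 such cores, whose bases farthest from the start lay 223, 128 and 50 bases upstream, and the Mt1 window held 1, at 23 bases. The Mt3 window held none, and among the other members Gclm held 2 and Srxn1 held 1. Of 32851 windows of the same length in the RefSeq table, 21.4% held at least 1 core and 1.26% held at least 3. The antioxidant response element core, searched as TGACNNNGC on both strands, was present once in the windows of Mt2 and Gclm, in 1 of the 3 Txnrd1 windows, and in 10.2% of all windows. The Mt2 match overlaps a match to the AP-1 letters TGACTCA, found in 4.46% of windows. These matches are descriptions of letters and not measured binding, and Hmox1 had no entry. The windows end at the RefSeq start used, and bases downstream of it were not searched. The 3 cores of Mt2 and 1 core of Mt1 are thus not counts for their whole promoters. No link between these counts and the 4 h values was tested.

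Before any comparison, 2 libraries stood apart. Sample 10 (5xCHI at 4 h) and sample 11 (5xCHI at 24 h) had Hmox1 at 119.9 and 175.6 CPM, where the other 37 samples ran from 2.21 to 12.5 CPM. The astrocyte gene Gfap was at 1627 and 2410 CPM in them (105 to 558 CPM in the others), and the phagocyte gene Cd68 at 29.4 and 45.1 CPM (2.74 to 11.8 CPM). Summed over lists of 10 markers, microglia stood at 706 and 859 CPM (259 to 457 CPM), astrocytes at 6805 and 7545 CPM (3160 to 5244 CPM), oligodendrocytes at 8018 and 9079 CPM (3962 to 8006 CPM), and neurons at 8862 and 7411 CPM (9197 to 13113 CPM). The blood-derived myeloid list gave 41.9 and 71.1 CPM (9.10 to 51.7 CPM), with Ly6g, a neutrophil marker, at 0 in all 39 samples. Most of that sum was a single gene, Lyz2, at 33.4 and 60.4 CPM (2.16 to 22.0 CPM). Mrc1 of the same list stood at 3.00 and 3.11 CPM, under the median of 4.62 CPM in the others. Only 4 of the 10 genes listed were abundant enough to be tested, so the sum does not give the level of a cell type. The neuron markers were abundant in every sample, as the labelled tissue implies. In homogenised cortex, fewer cells of a type and less RNA per cell cannot be told apart.

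Sample number also moved with the metallothioneins. In the 9 groups that held animals from both samples 1 to 18 and samples 19 to 40, the earlier numbers had the higher mean of Mt1 in 8, of Mt2 in 9 and of Mt3 in 8. The mean differences on the log2(CPM + 1) scale were 0.49 ± 0.34 for Mt1, 0.40 ± 0.24 for Mt2 and 0.41 ± 0.35 for Mt3 (SD, n = 9 groups). Sham had 1 animal in samples 1 to 18 and 3 in samples 19 to 40, 2xCHI and 4xCHI lay wholly in samples 19 to 40, and both animals of 3xCHI at 4 h lay in samples 1 to 18. The labels give these numbers no meaning, and the position 18/19 was found in the data. For the comparisons of times, differences within each range are given below. The fitted metallothionein differences between a single injury and Sham are given also with the range as a covariate. All other comparisons with Sham, and the trend with injury number, are given without a separate value for that covariate. The part of sample number in these results was not tested further.

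**Figure D1:**
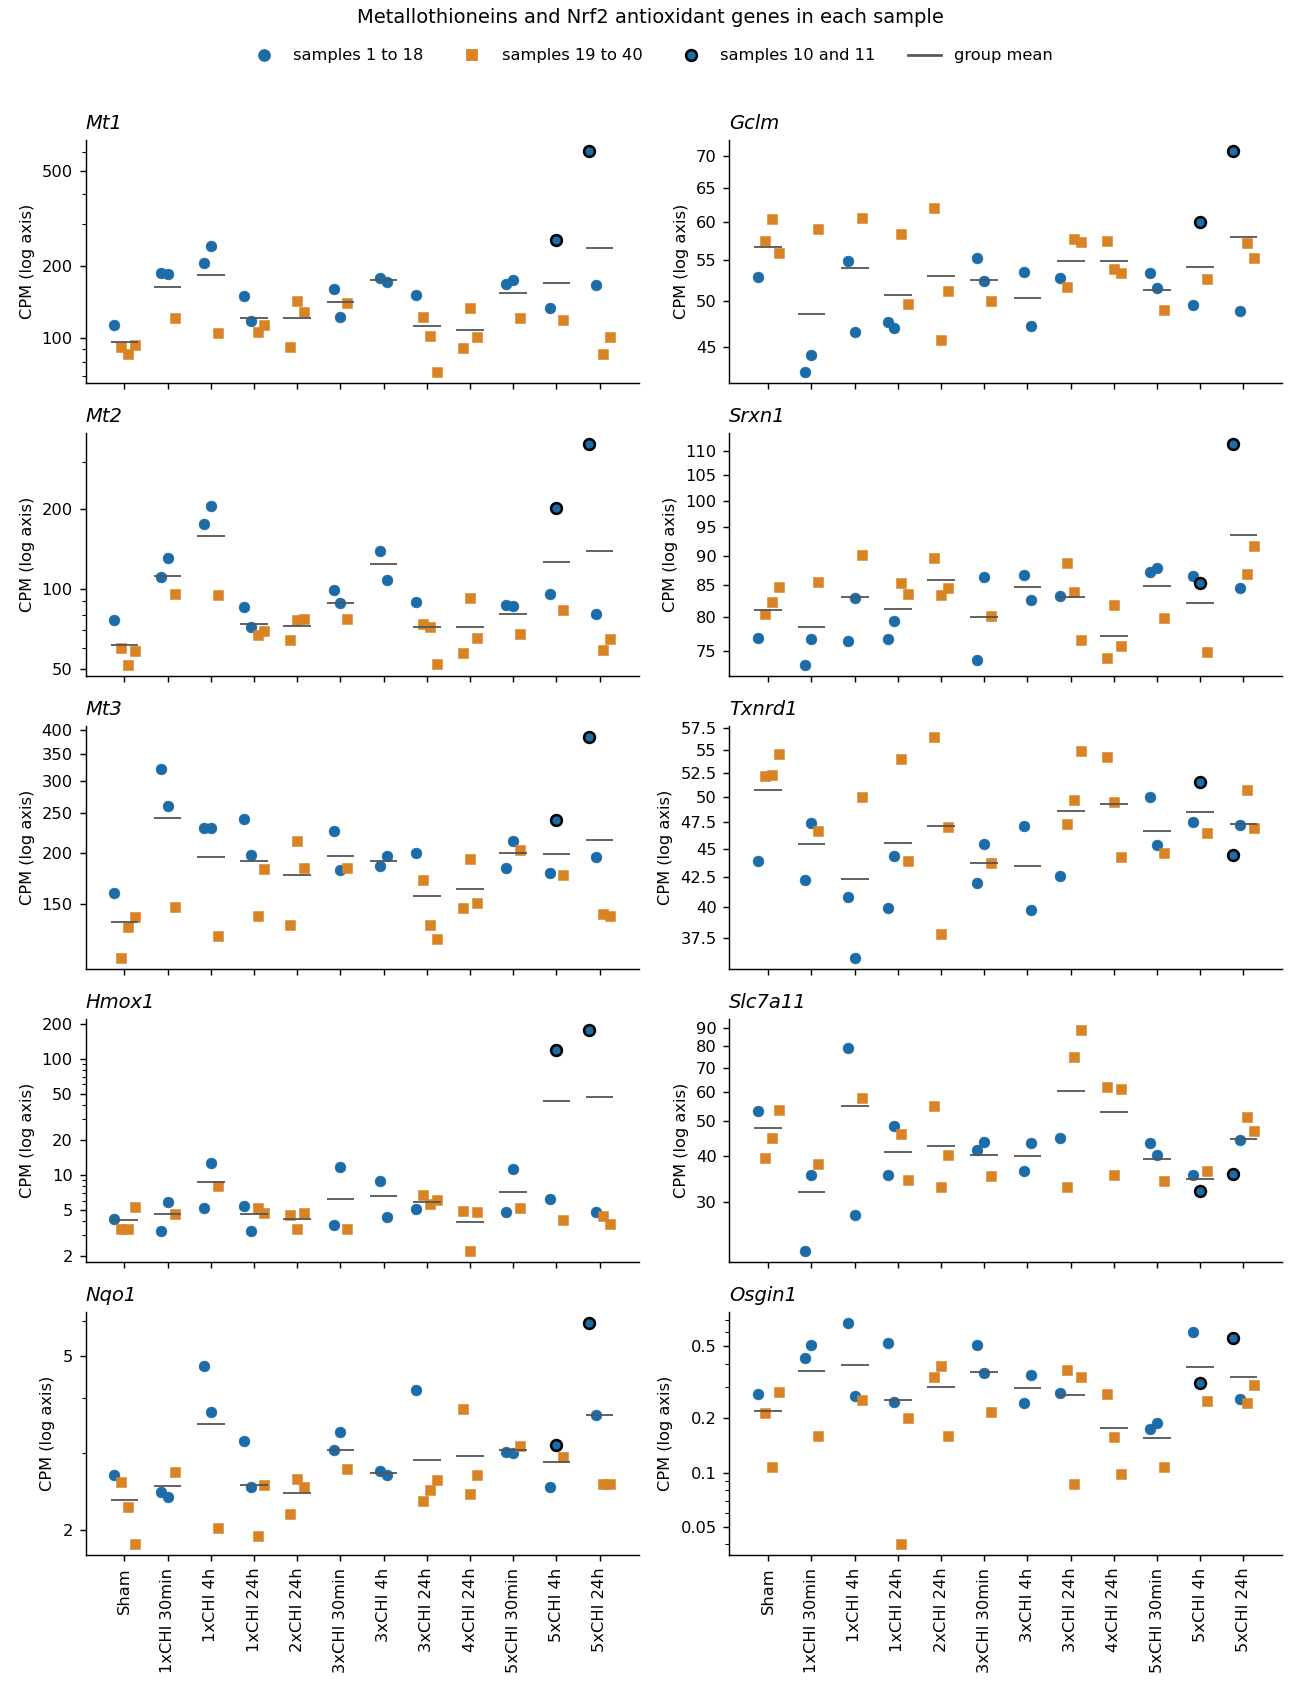
Level of each of the 10 genes (CPM, log axis) in each animal of the 12 groups. Blue circles are samples 1 to 18, orange squares samples 19 to 40, black rings mark samples 10 and 11, and grey lines are group means. Hmox1 is near 5 CPM in most animals and above 100 CPM in the ringed samples.

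Per kilobase of annotated exon, Mt3 had the highest value of the 10 genes in Sham, at 127 ± 18.9 CPM per kb (SD, n = 4), followed by Mt2 at 105 ± 18.1 and Mt1 at 77.6 ± 9.78. Srxn1 stood at 28.8, Gclm at 9.01, Txnrd1 at 7.16, Slc7a11 at 3.44, Hmox1 at 2.32, Nqo1 at 1.50 and Osgin1 at 0.0818 CPM per kb. Mt3 and Mt2, neighbours in this order, differed by about the SD of either. When the 12 groups were ordered by mean level, none of the 11 neighbouring pairs of groups was separated without overlap, for any of the 10 genes.

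The median level of Mt2 was highest 4 h after injury, at 123.9 CPM, beside 88.3 CPM at 30 min and 71.9 CPM at 24 h. The question was how levels after an injury change over the first day, and it was asked by comparing 4 h with 24 h over 1xCHI, 3xCHI and 5xCHI. All Sham samples are labelled with time 0. Time after injury therefore cannot be told apart here from time since isoflurane. Mt2 in Sham was 51.8, 58.2, 60.2 and 76.8 CPM. At 4 h it was 175.9, 205.5 and 95.1 CPM after 1xCHI. It was 139.6 and 108.2 CPM after 3xCHI. After 5xCHI it was 96.1, 201.3 and 83.3 CPM, of which 201.3 CPM is sample 10. At 24 h the 12 animals ran from 52.3 to 351.1 CPM with a median of 71.9 CPM, and the highest was sample 11. All 8 animals at 4 h lay above the 24 h median, and 7 of 8 lay above the highest of the other 11 animals at 24 h, 89.1 CPM.

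Over all 39 samples the Mt2 difference between 4 h and 24 h was 0.59 on the log2 scale (SE 0.23), with adjusted p = 0.993 (edgeR quasi-likelihood F test, adjusted by Benjamini-Hochberg). It was the only one of the 9 genes with an unadjusted p under 0.05, against a background of 3.44% of 15224 genes (523), and 0.00657% (1 gene) were called at an adjusted p under 0.05, none of them among the 10. With samples 10 and 11 left out, a choice made after seeing the data, Mt2 rose by 0.77 (SE 0.13) at 4 h relative to 24 h, with adjusted p = 0.00656 by the same edgeR test, and 0.0197% of 15254 genes were called (3 genes). Leaving out sample 11 alone gave 0.93 (adjusted p = 0.00231, edgeR; 4 genes called, 0.0262%). Sample 11 is the highest Mt2 value at 24 h, so its removal cannot count as independent evidence. With samples 10 and 11 left out and sample number range as a covariate, the difference was 0.62 (adjusted p = 0.00472, edgeR; 3 genes called, 0.0197%).

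Within samples 1 to 18, the Mt2 difference between 4 h and 24 h was 0.48 on the log2(CPM + 1) scale (n = 6 and 5), and 0.66 without samples 10 and 11 (n = 5 and 4). Within samples 19 to 40 it was 0.44 (n = 2 and 4). The sign was the same in both ranges. Over all 39 samples, with the sample number range as a covariate and no animal left out, it was 0.37, with an unadjusted p above 0.05 (edgeR).

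Relative to Sham, Mt2 was higher at 30 min and 4 h after a single injury. At 30 min after 1xCHI it was 110.9, 131.0 and 95.4 CPM, and at 24 h 85.3, 72.1, 67.2 and 69.8 CPM. All 3 animals at 30 min and all 3 at 4 h lay above the 4 Sham animals, whereas the 24 h animals overlapped them. Summed red blood cell markers at 30 min were 513, 503 and 86.0 CPM in samples 13, 14 and 27 (Sham 172 to 275 CPM). Summed astrocyte markers were 3189, 3852 and 4499 CPM (Sham 4091 to 5213 CPM). Samples 13 and 14 had the higher Mt2, and the part of tissue makeup in it was not tested. The difference from Sham was 0.86 (SE 0.39, adjusted p = 0.226) at 30 min and 1.36 (SE 0.39, adjusted p = 0.323) at 4 h (edgeR), both with an unadjusted p under 0.05. Of the 3 animals in each of these groups, 2 have numbers from 1 to 18, against 1 of 4 in Sham. With the sample number range as a covariate the differences were 0.60 (adjusted p = 0.423) and 1.04 (adjusted p = 0.505), and with 1 surrogate variable, a factor estimated from all genes, they were 0.25 (adjusted p = 0.825) and 0.83 (adjusted p = 0.316), by edgeR. The 30 min difference then had an unadjusted p above 0.05 under both settings, and the 4 h difference had one under 0.05. Neither comparison called any gene at an adjusted p under 0.05 (0.0% of 15224), although 19.7% and 10.5% of genes had an unadjusted p under 0.05. Genes higher without overlap made up 4.61% of those tested at 30 min and 3.07% at 4 h. Without samples 10 and 11, neither of which belongs to these groups, the spread estimated over all groups shrank and the 4 h difference of 1.36 had SE 0.20 and adjusted p = 0.00214 (edgeR), the only gene called of 15254 (0.00656%). The animal of 1xCHI at 4 h with the lowest Mt2 was sample 36, and leaving it out gave 1.63 (adjusted p = 0.0322, edgeR), with 606 genes called in all (3.98%). Sample 36 is also the only animal of that group with a number from 19 to 40. Its removal cannot count as independent evidence.

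Before the 3xCHI and 5xCHI groups the pre-injury states were 2xCHI and 4xCHI at 24 h. Mt2 was 64.0, 76.6 and 77.2 CPM in 2xCHI and 57.5, 92.7 and 65.6 CPM in 4xCHI. The 3xCHI animals lay above 2xCHI at 30 min (99.1, 88.3 and 77.4 CPM) and at 4 h, and overlapped them at 24 h. Genes higher without overlap made up 5.04% of those tested at 30 min and 10.7% at 4 h. The 5xCHI animals overlapped 4xCHI at 30 min (86.8, 86.3 and 68.0 CPM), at 4 h and at 24 h. All 2xCHI and 4xCHI animals have numbers from 19 to 40. None of these Mt2 differences was called.

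Mt1 at 4 h lay less far above 24 h than Mt2 did. In Sham it was 114.3, 92.0, 86.3 and 94.1 CPM. At 30 min after 1xCHI it was 186.7, 184.7 and 122.1 CPM, and at 4 h it was 205.4, 242.3 and 105.3 CPM. The 30 min animals lay above Sham, and the 4 h animals overlapped them through sample 36. At 24 h after 1xCHI it was 150.6, 118.3, 106.1 and 113.4 CPM. The Mt1 difference between 1xCHI at 4 h and Sham was 0.93 (SE 0.40, adjusted p = 0.434, edgeR; unadjusted p under 0.05), and fell to 0.56 with the sample number range as a covariate and 0.31 with 1 surrogate variable, both with an unadjusted p above 0.05. Between 4 h and 24 h over the 3 injury numbers it was 0.25 (SE 0.24, adjusted p = 0.993), and 0.45 (SE 0.16, adjusted p = 0.897) without samples 10 and 11 (edgeR). Within samples 1 to 18 it was 0.06 on the log2(CPM + 1) scale, or 0.21 without samples 10 and 11, and within samples 19 to 40 it was 0.15. At 24 h after 5xCHI, Mt1 was 602.0 CPM in sample 11 and 167.5, 85.9 and 101.2 CPM in the others.

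The ratio of Mt2 to Mt1, in CPM and picked for description after the values had been seen, is given without a test. It was 0.636 ± 0.032 in Sham (SD, n = 4), 0.616 ± 0.100 at 30 min (n = 9), 0.777 ± 0.0915 at 4 h (n = 8) and 0.619 ± 0.0647 at 24 h (n = 12). All 8 animals at 4 h lay above the 24 h median of 0.612, and 5 of 8 above the highest 24 h value of 0.720. The 3 animals of 1xCHI at 4 h ran from 0.848 to 0.903. Sample 36, with a Mt1 value inside the Sham range, is one of them. Sample 10 had 0.783, within the 4 h range, and sample 11 had 0.583, within the 24 h range, even though both genes were far above the other animals in sample 11.

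**Figure D2:**
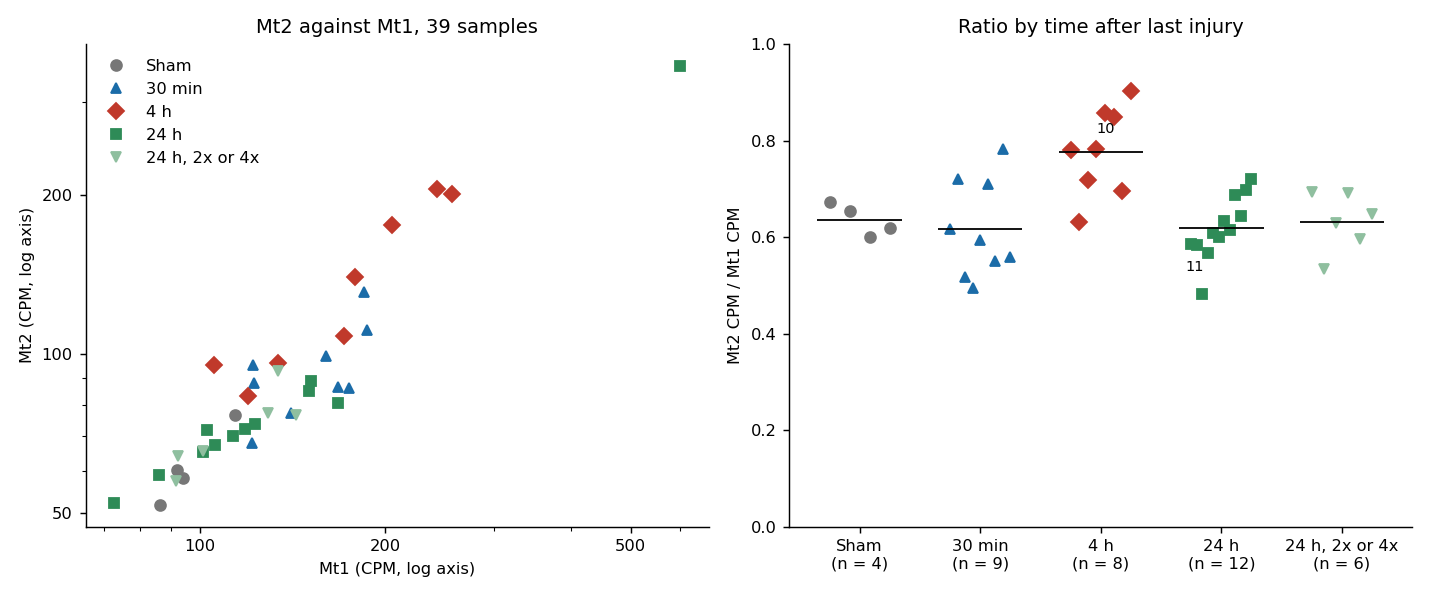
Left, Mt2 against Mt1 in each animal (CPM, both axes log), coloured by time class. Right, the ratio of Mt2 to Mt1 in Sham, at each of the 3 times after 1xCHI, 3xCHI or 5xCHI, and at 24 h after 2xCHI or 4xCHI, with lines at the means and samples 10 and 11 labelled. The 4 h mean is 0.777 and the other means lie between 0.616 and 0.636.

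Mt3, the brain form, had no 4 h value above the 24 h range, and was highest at 30 min after 1xCHI apart from sample 11. In Sham it was 159.7, 110.8, 132.1 and 139.3 CPM. It was 321.2, 260.5 and 148.0 CPM at 30 min after 1xCHI. At 4 h it was 230.4, 230.6 and 125.1 CPM, and at 24 h 242.7, 197.4, 140.6 and 182.5 CPM. The lower animal at 30 min (sample 27) and at 4 h (sample 36) overlapped Sham. The difference at 30 min from Sham was 0.85 (SE 0.27, adjusted p = 0.167, edgeR; unadjusted p under 0.05). It was 0.58 with the sample number range as a covariate (unadjusted p under 0.05) and 0.18 with 1 surrogate variable (unadjusted p above 0.05). Leaving out sample 27 gave 1.10 (adjusted p = 0.0119, edgeR), among 3602 genes then called (23.6%). Sample 27 has the lowest Mt3 of its group and is the only animal there with a number from 19 to 40. Its removal cannot count as independent evidence. For 4 h against 24 h the Mt3 difference was 0.07 (SE 0.17), and 0.16 (SE 0.14) without samples 10 and 11. Within samples 1 to 18 it was −0.13 on the log2(CPM + 1) scale, or −0.04 without samples 10 and 11, and within samples 19 to 40 it was −0.02.

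Hmox1, heme oxygenase 1, degrades heme to biliverdin, iron and carbon monoxide. In Sham it was 4.19, 3.39, 3.43 and 5.23 CPM. After 5xCHI it was 4.75, 11.3 and 5.21 CPM at 30 min. At 4 h it was 6.15, 119.9 and 4.11 CPM, and at 24 h 175.6, 4.77, 4.45 and 3.77 CPM. The 4 h and 24 h groups of 5xCHI thus each held 1 animal far above the rest, samples 10 and 11, and the other animals overlapped Sham. The fitted difference between 5xCHI and 4xCHI was 3.47 at 4 h (SE 1.09, adjusted p = 0.894) and 3.58 at 24 h (SE 1.06, adjusted p = 0.635) by edgeR, both with an unadjusted p under 0.05. Without samples 10 and 11 the 4 h difference was 0.38 (SE 0.45) and the 24 h difference 0.13 (SE 0.40). With all animals kept, 5.33% and 6.44% of genes had an unadjusted p under 0.05 in the 2 comparisons, and 0.0% an adjusted p under 0.05.

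Outside those animals Hmox1 also varied. At 4 h after 1xCHI it was 5.22, 12.5 and 8.04 CPM, after 3xCHI 8.77 and 4.29 CPM, and single animals at 30 min reached 11.6 CPM after 3xCHI and 11.3 CPM after 5xCHI. Without samples 10 and 11, the difference of 1xCHI at 4 h from Sham was 1.09 (SE 0.36, adjusted p = 0.23, edgeR), and that between 4 h and 24 h was 0.43 (SE 0.23, adjusted p = 0.897, edgeR). On the log2(CPM + 1) scale the latter was 0.46 within samples 1 to 18 without the same samples, and 0.31 within samples 19 to 40. Within 5xCHI the sign of the difference between 30 min and 24 h depended on sample 11: it was −2.74 with all animals and 0.70 without it.

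**Figure D3:**
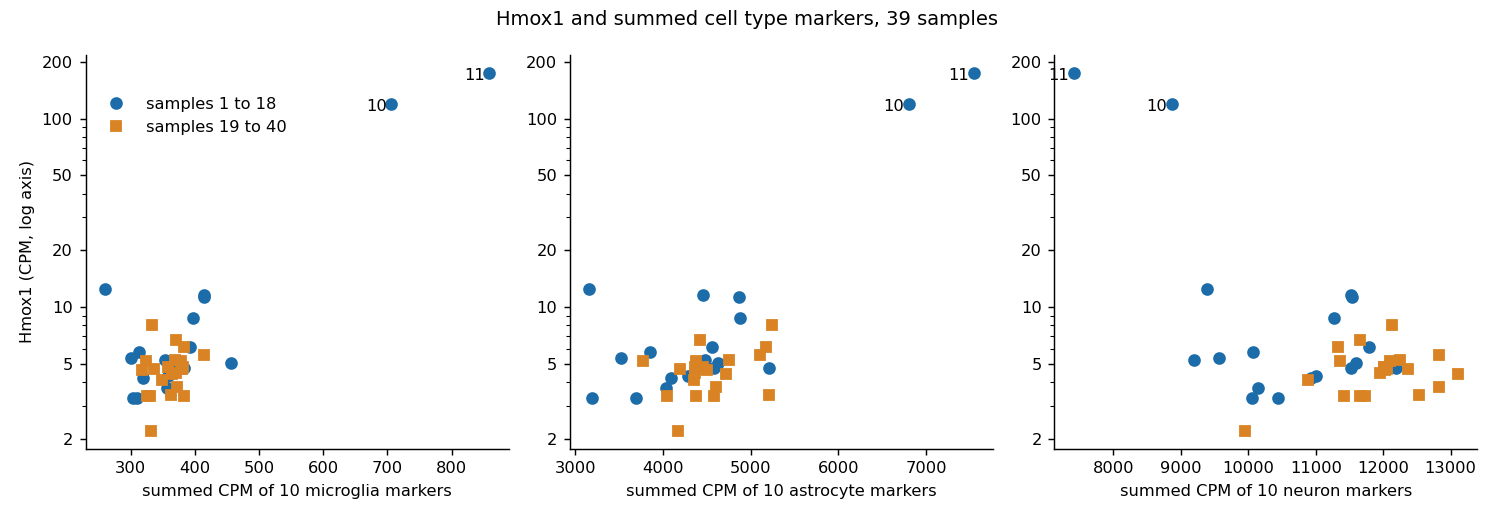
Hmox1 (CPM, log axis) against the summed CPM of 10 microglia, 10 astrocyte and 10 neuron markers in each animal. Samples 10 and 11 have the highest microglia and astrocyte sums and the lowest neuron sums, and the part of cell composition in their Hmox1 level was not tested.

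Nqo1, a quinone reductase, was low. It was 2.67, 2.57, 2.25 and 1.86 CPM in Sham, and in all 39 samples it ran from 1.86 to 5.94 CPM, the highest being sample 11. At 4 h after 1xCHI it was 4.76, 3.72 and 2.02 CPM, overlapping Sham, with a difference of 0.58 (SE 0.26, adjusted p = 0.445, edgeR; unadjusted p under 0.05). Under the alternative settings that left out no animal of these groups it fell as low as 0.27, and the unadjusted p did not stay under 0.05. At 24 h after 3xCHI, sample 2 stood at 4.17 CPM and the others between 2.33 and 2.61 CPM. Nqo1 at 30 min and at 4 h after 3xCHI lay above 2xCHI without overlap, as did 5.04% and 10.7% of the genes tested. The differences, 0.33 and 0.15, had an unadjusted p above 0.05 (edgeR), and at 4 h they compare 2 animals from samples 1 to 18 with 3 from samples 19 to 40. Nqo1 counts ran from 33 to 128 a sample, so counting error is a larger part of its spread than for the other tested genes.

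Slc7a11 and Gclm serve glutathione synthesis. Slc7a11 is the light chain of the cystine-glutamate exchanger that brings in cystine, and Gclm the modifier subunit of glutamate-cysteine ligase. Slc7a11 was 53.1, 39.6, 45.0 and 53.7 CPM in Sham and 22.1, 35.6 and 38.2 CPM at 30 min after 1xCHI, all 3 below Sham. Genes lower without overlap made up 4.11% of those tested. Over the 3 injury numbers it was 37.2 ± 6.68 CPM at 30 min (SD, n = 9) and 48.7 ± 16.8 CPM at 24 h (n = 12). The difference was −0.38 (SE 0.16, adjusted p = 0.463, edgeR). Slc7a11 was the only one of the 9 genes with an unadjusted p under 0.05 there, against 10.5% of all genes, and 22 genes (0.145%) were called. Without samples 10 and 11 the difference was −0.41, and those of Mt1 (0.38), Mt2 (0.38) and Mt3 (0.34) also had an unadjusted p under 0.05, with a background of 15.9%. Each of the 4 had adjusted p = 0.314 (edgeR). Within samples 1 to 18 without samples 10 and 11, the differences on the log2(CPM + 1) scale were −0.24 for Slc7a11, 0.13 for Mt1, 0.26 for Mt2 and 0.15 for Mt3. With samples 10 and 11 kept they were −0.19, −0.18, −0.09 and −0.01 in the same order. Within samples 19 to 40 they were −0.44, 0.36, 0.28 and 0.26. The metallothionein signs in samples 1 to 18 thus turned with samples 10 and 11. At 4 h after 1xCHI Slc7a11 ranged widely, at 79.2, 27.6 and 57.7 CPM.

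Gclm moved over a narrow range, from 42.4 to 70.7 CPM in all samples, with sample 11 at the top. It was 52.9, 57.4, 60.5 and 55.9 CPM in Sham and 42.4, 44.1 and 59.0 CPM at 30 min after 1xCHI. The higher of these, sample 27, lay inside the Sham range. The difference was −0.22 (SE 0.12, adjusted p = 0.273, edgeR) with it, and −0.39 (adjusted p = 0.0277, edgeR) without it, in a fit that called 23.6% of all genes. Sample 27 has a number from 19 to 40, as do 3 of the 4 Sham animals, and the other animals of 1xCHI at 30 min have numbers from 1 to 18. It is the highest Gclm value of its group, so its removal cannot count as independent evidence. Gclm was lower in samples 1 to 18 in 7 of the 9 groups that hold both ranges. Its estimated counts were not whole numbers in any of the 39 samples, whereas those of the other 9 genes were whole in all 39 (tolerance 1e-06).

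Txnrd1 and Srxn1 keep thiol proteins reduced, the first as cytosolic thioredoxin reductase and the second as sulfiredoxin, which repairs over-oxidised peroxiredoxins. Txnrd1 was 43.9, 52.2, 52.2 and 54.5 CPM in Sham and 40.8, 36.0 and 50.02 CPM at 4 h after 1xCHI. The groups overlapped, with a difference of −0.26 (SE 0.12, adjusted p = 0.445, edgeR; unadjusted p under 0.05). Srxn1 ran from 76.9 to 84.7 CPM in Sham. It was 74.0, 81.8 and 75.6 CPM at 24 h after 4xCHI and 111.5, 84.6, 87.0 and 91.8 CPM at 24 h after 5xCHI, so that all 4 animals lay above the 3. The difference was 0.28 (SE 0.084, adjusted p = 0.635, edgeR; unadjusted p under 0.05), and 0.19 (SE 0.078, adjusted p = 0.931) without samples 10 and 11. Genes higher without overlap made up 2.38% of those tested. Osgin1, an Nrf2 target linked to growth inhibition, had 1 to 13 counts a sample (0.0403 to 0.672 CPM), where 3 counts equal 0.108 to 0.188 CPM. It fell under the filter on low counts and was not tested.

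**Figure D4:**
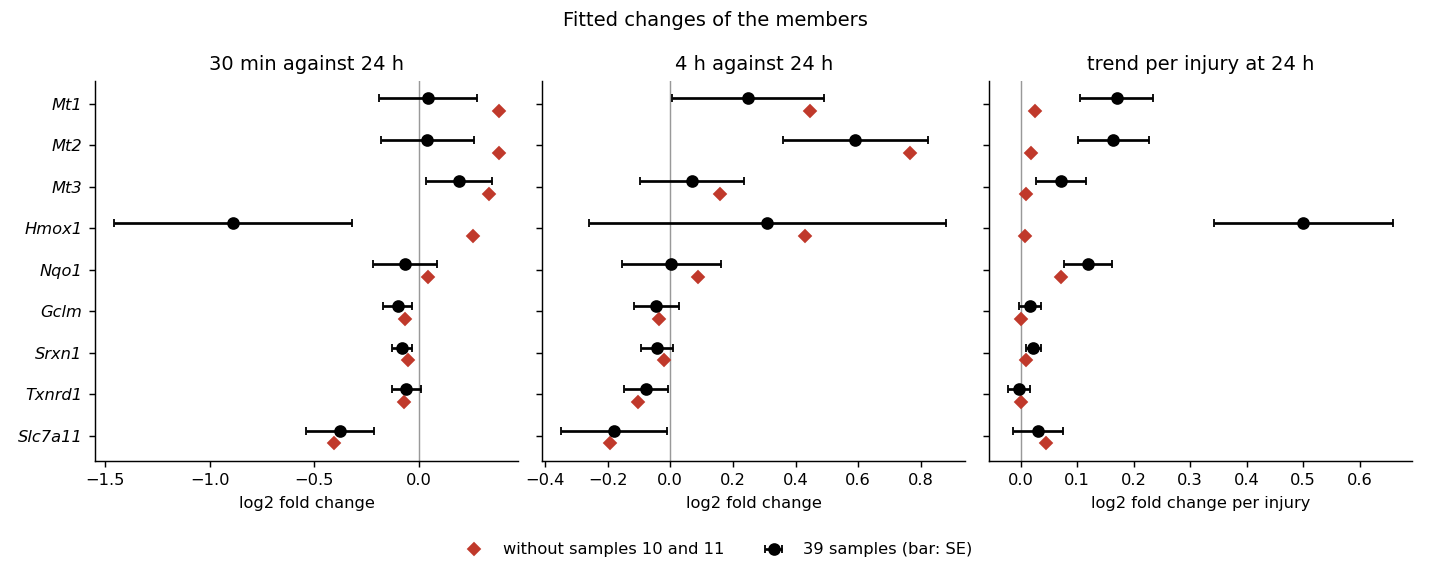
Differences on the log2 scale with standard errors for the 9 tested genes, at 30 min and at 4 h against 24 h, and as the trend per injury at 24 h. Red diamonds leave out samples 10 and 11. For Hmox1 the trend is 0.50 with all animals and 0.01 without them.

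With the number of injuries as the question, a linear trend at 24 h over Sham and 1xCHI to 5xCHI was fitted. Its slope per injury on the log2 scale was 0.17 for Mt1 (SE 0.065), 0.16 for Mt2 (SE 0.062), 0.50 for Hmox1 (SE 0.16) and 0.12 for Nqo1 (SE 0.042), each with an unadjusted p under 0.05 and adjusted p = 0.76 (edgeR). The background at an unadjusted p under 0.05 was 5.78%, and 0.0% of genes were called. When samples 10 and 11 were left out the slopes were 0.02 for Mt1, 0.02 for Mt2, 0.01 for Hmox1 and 0.07 for Nqo1, and none of the 9 genes had an unadjusted p under 0.05, where 2.86% of all genes did. Of the pair, only sample 11 is in the 24 h groups. Averaged over times, 5xCHI differed from Sham by 0.93 for Mt1, 0.86 for Mt2, 0.60 for Mt3, 2.59 for Hmox1 and 0.44 for Nqo1, each at an unadjusted p under 0.05 (edgeR), with a background of 10.3%. Under the alternative settings that left out no animal of these groups, they fell as low as 0.38, 0.39, 0.22, 1.53 and 0.22 in that order. In those settings the unadjusted p stayed under 0.05 for Mt3 only. Without samples 10 and 11 Mt1 was at 0.45, Mt2 at 0.35, Mt3 at 0.40, Hmox1 at 0.42 and Nqo1 at 0.30, of which only the metallothioneins had an unadjusted p under 0.05 (background 6.37%), with adjusted p between 0.771 and 0.778 (edgeR).

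A single injury averaged over times differed from Sham by 0.68 for Mt1, 0.83 for Mt2, 0.62 for Mt3 and −0.19 for Txnrd1, each at an unadjusted p under 0.05 by edgeR, with a background of 16.7% and 0.0% called. With the sample number range as a covariate Mt1 was at 0.39, Mt2 at 0.58 and Mt3 at 0.40, Mt1 with an unadjusted p above 0.05 and the others under it. With 1 surrogate variable they were at 0.09, 0.34 and 0.13, all with an unadjusted p above 0.05 (adjusted p = 0.955 for Mt1 and 0.86 for the others, edgeR). The test of whether the time course differed between 1xCHI, 3xCHI and 5xCHI gave no gene of the 9 an unadjusted p under 0.05 by edgeR, where 2.63% of all genes had one and 0.0% were called. In the test of any difference among the 3 times, Mt2 and Slc7a11 had an unadjusted p under 0.05 by edgeR (adjusted p = 1.0), against a background of 4.25%, with 5 genes called (0.0328%). DESeq2 called none of the 9 genes in any comparison.

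Around these members, 101 further genes of 5 lists were followed, of which 97 were tested: zinc and metal handling (18 tested), Nrf2 regulators (11), other Nrf2 targets (40), glucocorticoid-responsive genes (16) and ATF4 targets (12). None was called in any comparison, with or without samples 10 and 11 (edgeR, Benjamini-Hochberg). For 4 h against 24 h, none of the zinc genes, Nrf2 regulators or ATF4 targets had an unadjusted p under 0.05, and their median differences were −0.01, −0.02 and 0.04, beside −0.00012 over all genes. Of the other Nrf2 targets 1 of 40 did, the organic anion exporter Abcc4 (0.26), with a list median of −0.0069. Of the glucocorticoid-responsive genes 3 of 16 did, all higher, against the background of 3.44%, with a median of 0.21: the lipid droplet gene Plin4 (1.23), the receptor chaperone Fkbp5 (0.59) and Tsc22d3, also called GILZ (0.23), all by edgeR. Fkbp5 was 26.7 CPM in Sham, 30.5 at 30 min, 45.9 at 4 h and 32.1 CPM at 24 h (means). Samples 10 and 11 had Fkbp5 at 54.6 and 70.5 CPM and Plin4 at 50.3 and 80.6 CPM, and Plin4 averaged 24.2 CPM in samples 1 to 18 and 10.4 CPM in samples 19 to 40. Without samples 10 and 11 the 3 genes were still those of the list with an unadjusted p under 0.05, at 1.27 for Plin4, 0.58 for Fkbp5 and 0.25 for Tsc22d3 (list median 0.23), and Abcc4 no longer had one. Within samples 1 to 18 without that pair, the differences on the log2(CPM + 1) scale were 1.09 for Plin4, 0.46 for Fkbp5 and 0.12 for Tsc22d3. Within samples 19 to 40 they were 1.46, 0.61 and 0.33.

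At 30 min against 24 h the glucocorticoid-responsive list had 7 of 16 genes higher at an unadjusted p under 0.05 and none lower, against a background of 10.5% in either direction, with a median of 0.37 beside −0.0088 over all genes, led by Tsc22d3 (0.38), Errfi1 (0.27), Nfkbia (0.55) and Per1 (0.47), by edgeR. Some of these, such as Per1 and Nfkbia, are also immediate early genes. Among Nrf2 regulators the small Maf genes Mafg (0.20) and Mafk (0.34) and Keap1 (−0.09) had an unadjusted p under 0.05, by edgeR. So did 3 of 18 zinc genes, the exporters Slc30a1 (−0.25) and Slc30a7 (−0.20) and the importer Slc39a8 (−0.28), with a list median of −0.09. Of the other Nrf2 targets 5 of 40 did, 1 with a positive and 4 with a negative difference, and the list median was −0.03. Among ATF4 targets Atf4 itself (0.21) and Mthfd2 (0.18) did. When samples 10 and 11 were left out the background was 15.9%, and an unadjusted p under 0.05 was reached by 9 of 16 glucocorticoid-responsive genes, all with positive differences (median 0.42), 5 of 11 regulators, 2 of 18 zinc genes, 6 of 40 other Nrf2 targets and 3 of 12 ATF4 targets. Within samples 1 to 18 without that pair, the differences on the log2(CPM + 1) scale were 0.36 for Tsc22d3, 0.34 for Errfi1, 0.49 for Nfkbia and 0.41 for Per1. Within samples 19 to 40 they were 0.33, 0.14, 0.57 and 0.22.

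For the trend with injury number, 6 of 40 other Nrf2 targets had a higher slope at an unadjusted p under 0.05 (edgeR), among them Prdx6 (0.13) and Gstm1 (0.08), as did 3 of 11 regulators, Maff (0.26), Nfe2l2 (0.10) and Keap1 (0.03), against the background of 5.78% in either direction. Without samples 10 and 11 no gene of the 5 lists did, where 436 of all 15254 genes did.

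**Figure D5:**
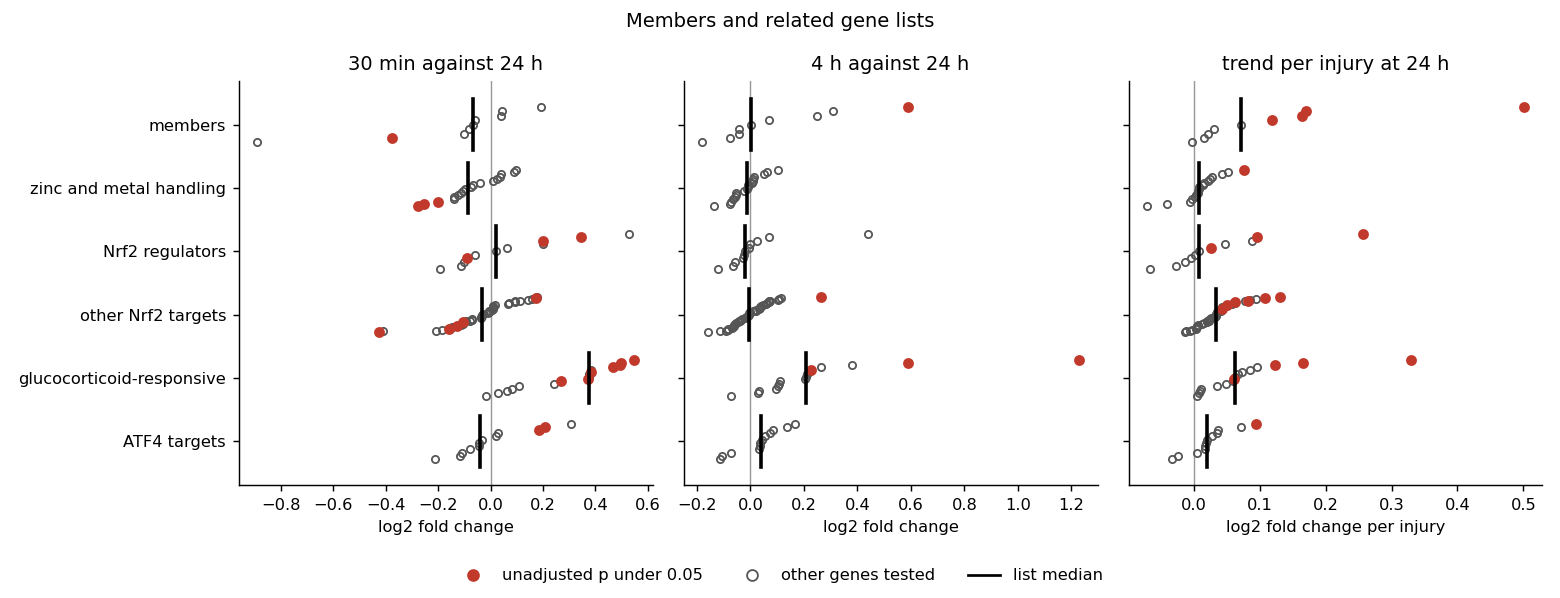
Log2 difference of each tested gene in the 10-gene set and the 5 lists, for each comparison shown. Red points have an unadjusted p under 0.05 and black lines are list medians. The glucocorticoid-responsive list has its median at 0.37 at 30 min and 0.21 at 4 h against 24 h, and the other lists lie near 0.

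Likeness of pattern was described by Pearson's r on log2(CPM + 1) over 39 samples, which share tissue, depth differences and the 2 libraries above, so no p is given. Mt1 and Mt2 had r = 0.933 (0.882 over the 37 samples without samples 10 and 11), Mt1 and Mt3 0.878, and Mt2 and Mt3 0.758. The genes most like Mt3 were Rplp2 (0.968), Rpl41 (0.962) and Gas5 (0.96). The first pair encode ribosomal proteins and Gas5 is a noncoding host of small nucleolar RNAs. Rplp2 itself was 106 ± 21.4 CPM in samples 1 to 18 and 82.0 ± 12.3 CPM in samples 19 to 40 (SD), and its difference between 1xCHI and Sham was 0.52 (SE 0.17), beside 0.62 for Mt3. The genes most like Hmox1 were Gpnmb (0.928), Grn (0.902) and Plin2 (0.899), and without samples 10 and 11 Cd44 (0.74), Vim (0.698) and Tnfrsf1a (0.669). Gclm was most like the bicarbonate transporter gene Slc4a4 (0.893), Txnrd1 like Pfkfb3 (0.844), Srxn1 like Ube2l3 (0.777) and Nqo1 like Vamp8 (0.788).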

How the data were processed

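For bulk cortical RNA the authors deposited estimated counts per gene, aligned to mm10 per the labels. The layout is that of salmon summed to genes, whose version is not given in the sources used here; 4.46% of values were not whole and were rounded. The labels and the methods name different RNA kits. Sample 30 was left out here; the authors dropped an outlier animal that the labels do not name. A gene was dropped when more than 4 of the 39 samples had under 10 counts (15224 kept). Group means of all 12 groups were fitted with edgeR 4.0.16 (TMM, quasi-likelihood F test, Benjamini-Hochberg, threshold 0.05) in R 4.3.3. DESeq2 1.42.0, other filters, surrogate variables (sva 3.50.0), a sample-number covariate and leaving out each sample were alternatives. Leaving out samples 10 and 11 was added after seeing the data. All replicate pairs differed beyond counting noise; p-values measure the spread between animals. The members, lists and the rule for named genes (every member, the smallest p of each list, the 3 genes most like each member) were chosen with earlier results of these data known. Sequences are from RefSeq, GRCm38.p6; 9 of 10 members had a promoter entry.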

Additional observations from a re-analysis of the deposited data

Results flagged for a closer look

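Of 40 sets of 4 animals for the 10 genes, 4 had 1 animal whose gap to the others exceeded Dixon's 95% critical value of 0.829. The sets reuse the same animals over genes that vary together, and most of those flagged were sample 11. The number flagged therefore cannot be set against a chance rate. In 5xCHI at 24 h, sample 11 stood at 602.0 CPM for Mt1 (others 85.9 to 167.5 CPM), 351.1 CPM for Mt2 (59.0 to 80.8 CPM) and 175.6 CPM for Hmox1 (3.77 to 4.77 CPM). In 3xCHI at 24 h, sample 2 stood at 4.17 CPM for Nqo1 (2.33 to 2.61 CPM).

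Sample 30, which enters no comparison, lay above the highest Sham animal, in CPM by library size, for Gclm (59.3 CPM, Sham 54.3 to 59.3 CPM), Srxn1 (90.5 CPM, Sham 78.9 to 83.6 CPM) and Osgin1 (0.381 CPM, Sham 0.105 to 0.279 CPM). For Gclm and Osgin1 the excess over the highest Sham animal was smaller than the range of the Sham animals.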

How the results depend on the processing

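The number of the 9 tested members called was 0 in every comparison with all 39 samples, under each other setting that left out no animal. The exceptions came from leaving out animals. For 4 h against 24 h it was 1 without samples 10 and 11 (Mt2), 1 with the sample-number covariate as well, and 0 to 1 when each sample was left out in turn. For 1xCHI at 4 h against Sham it was 1 in both of these fits and 0 to 1 in turn. For 1xCHI at 30 min against Sham it was 0 to 2 in turn. For any difference between times it was 1 without samples 10 and 11 with the covariate, and for 4 h against 24 h within 1xCHI Mt2 was called in that fit (1.00, adjusted p = 0.00169, edgeR). The log2 difference of Mt2 between 5xCHI and 4xCHI at 24 h turned from 0.95 to −0.0745 without samples 10 and 11 and to −0.22 with the covariate as well (−0.0744 to 1.20 with each sample left out in turn, the lowest without sample 11), and Mt1 turned from 1.14 to −0.0902 with both. Hmox1 at 30 min against 24 h within 5xCHI turned from −2.74 to 0.70 without samples 10 and 11 and to 0.63 with the covariate as well (−3.24 to 0.70 in turn, the highest without sample 11). The only animal dropped from that 24 h group is sample 11.

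Over all genes, DESeq2 called 52 where edgeR called 22 at 30 min against 24 h, 28 where it called 0 for 1xCHI at 30 min against Sham (3602 by edgeR without sample 27), and 11 where it called 0 for 1xCHI at 4 h against Sham (606 without sample 36). No paired analysis was possible because each sample number occurs once and no number is shared between groups. Depth limits Osgin1 and Nqo1.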
